A study of Mus musculus with 8 samples.

Results

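The metabotropic glutamate receptor genes Grm2, Grm3, Grm4, Grm5, Grm7 and Grm8 were followed through an RNA immunoprecipitation (RIP) of the kinase CaMKIIβ from mouse tissue. They were chosen by name as 6 members of the receptor family, 6 of the 55401 genes in the deposited count table, and other receptors of the family were not analysed here. In a RIP, an antibody pulls down a protein and the RNA that comes with it is sequenced. 3 libraries came from RIP with a CaMKIIβ antibody, 3 from RIP with IgG and 2 from Input RNA, and all 8 were labelled hippocampus of C57BL/6 mice, with no genotype, treatment or age given. The comparison of the antibodies asks which RNAs come down with CaMKIIβ more than with IgG, and the comparisons with Input show what either pull-down changed in the RNA pool. The labels do not say whether replicates came from separate animals, so p-values measure the spread between these libraries, which may be technical.

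Metabotropic glutamate receptors are class C G protein-coupled receptors that bind glutamate in a large extracellular domain and act as dimers. Group I receptors, here Grm5, couple to Gq and phospholipase C and sit mainly on the postsynaptic side, while group II (Grm2 and Grm3) and group III (Grm4, Grm7 and Grm8) couple to Gi/o and mostly restrain transmitter release. In the rodent brain Grm5 is abundant in hippocampal pyramidal neurons, Grm2 in dentate granule cells and cerebellar Golgi cells, Grm3 in astrocytes as well as neurons, and Grm4 in cerebellar granule cells. CaMKIIβ is a calcium- and calmodulin-dependent kinase of neurons that also binds actin.

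Library totals were 17273957 to 25299903 counts with the CaMKIIβ antibody, 22061623 to 28138289 with IgG and 17776157 to 21359418 in Input. CaMKIIβ RIP replicate 2 stood apart: the first principal component, with 51.7% of the variance, placed it at 222.8 and the other 7 libraries between -58.12 and -11.55, and it had counts for 19247 genes against 24865 to 31152 in the others. Markers of the labelled tissue were present, with 12 hippocampal and telencephalic neuron genes summing to 104 to 122 CPM, counts scaled to a common library total, per kilobase of exon (CPM per kb) with the CaMKIIβ antibody, 107 to 115 with IgG and 101 in both Input libraries. 10 cerebellar granule cell markers summed to 963 to 1037 CPM per kb with the CaMKIIβ antibody, 1005 to 1047 with IgG and 861 to 882 in Input, so the libraries labelled hippocampus held cerebellar marker RNA at a higher summed level than that of the hippocampal list. The granule cell marker Gabra6 had 73.6 to 103 CPM per kb with the CaMKIIβ antibody, 82.9 to 91.4 with IgG and 168 in Input, against 5.05 to 9.56, 8.81 to 11.1 and 14.7 to 15.2 in the same groups for Neurod6, a marker of pyramidal neurons. Gabra6 was the highest of its list in Input, and single markers of the lists overlapped in level. In Input the granule cell markers Barhl2 (8.55 to 9.10 CPM per kb) and Cdh15 (9.29 to 9.31) were below Neurod6. They were also below Neurod2 of the hippocampal list (31.0 to 32.3). No marker of either list was at 0 in any library.

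On the per-length scale the 6 receptors followed the same order in all 3 groups: Grm4, Grm3, Grm5, Grm7, Grm2 and Grm8, all with a mean of 3, 3 and 2 libraries. Grm4 had the highest level, averaging 118 CPM per kb in CaMKIIβ RIP, 108 in IgG RIP and 77.1 in Input, which was 4.31, 3.58 and 4.25 times the level of Grm3 in the same groups. Grm4 made up 65.5%, 70.2% and 65.7% of the summed per-kb level of the 6 receptors in the CaMKIIβ RIP libraries, 63.3%, 62.8% and 64.3% in the IgG RIP libraries, and 61.5% and 60.8% in Input. Grm3 averaged 27.5, 30.2 and 18.1 CPM per kb in CaMKIIβ RIP, IgG RIP and Input. Grm5 averaged 11.7, 11.7 and 14.8 CPM per kb in these groups, and Grm7 9.39, 9.36 and 8.76. Grm2 averaged 7.70, 9.18 and 5.67 CPM per kb and Grm8 1.33, 1.78 and 1.61. Neighbours in this order had overlapping libraries in only 3 cases: Grm5 with Grm7 in CaMKIIβ RIP, and Grm7 with Grm2 in CaMKIIβ RIP and in IgG RIP. The high level of Grm4 stands beside the cerebellar granule cell markers given above, and their part in it was not tested. In whole tissue, fewer cells of a type and less RNA per cell cannot be told apart.

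**Figure D1:**
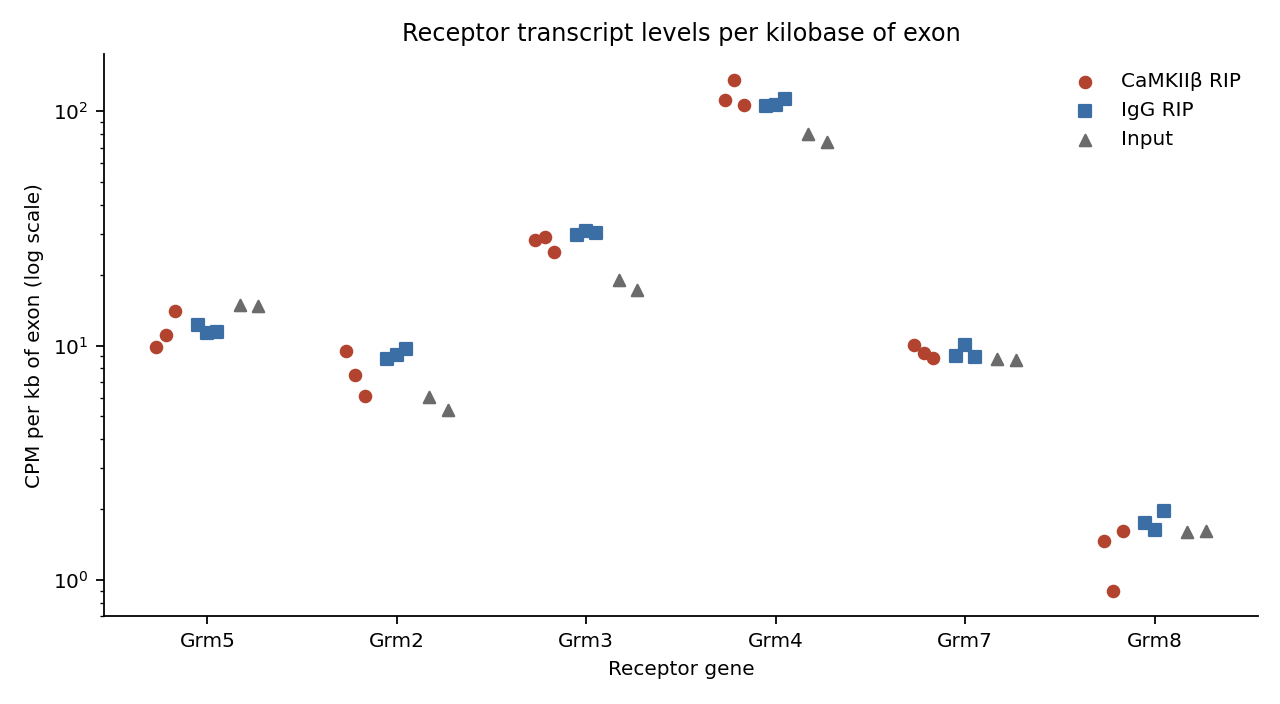
Level of each receptor in CPM per kb of exon on a log axis, with 1 point per library for CaMKIIβ RIP (circles), IgG RIP (squares) and Input (triangles). Grm4 lies above every other receptor in all 8 libraries and Grm8 lies below every other receptor.

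Grm5 is the receptor whose activation raises inositol trisphosphate and postsynaptic calcium. The gene (ENSMUSG00000049583.15) lies on the plus strand of chromosome 7, 87584168 to 88134907 on GRCm38, with 10247 exon bases in the authors' gene model. Levels from here on are CPM (not per kb) after TMM scaling over the 8 libraries. Grm5 had 101, 114 and 144 CPM in CaMKIIβ RIP, 125, 117 and 117 CPM in IgG RIP, and 152 and 150 CPM in Input. Both Input libraries were above all 6 RIP libraries, and the CaMKIIβ RIP libraries spread on both sides of the IgG RIP libraries. The means were 119 ± 22.2 (SD, n = 3), 120 ± 4.99 (SD, n = 3) and 151 ± 1.10 CPM (SD, n = 2), so the spread among CaMKIIβ RIP libraries was the widest of the groups.

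Group II receptors lower cyclic AMP in presynaptic terminals and glia. Grm2 (ENSMUSG00000023192.12; chromosome 9, 106643095 to 106656082, minus strand, 4894 exon bases) had 46.6, 36.5 and 29.9 CPM in CaMKIIβ RIP, 43.1, 44.5 and 47.2 CPM in IgG RIP, and 29.5 and 26.0 CPM in Input. Every RIP library exceeded both Input libraries, although CaMKIIβ RIP replicate 3 did so narrowly. Grm3 (ENSMUSG00000003974.6; chromosome 5, 9485541 to 9725170, minus strand, 3049 exon bases) had 86.1, 89.0 and 76.3 CPM in CaMKIIβ RIP, 90.0, 93.9 and 92.2 CPM in IgG RIP, and 57.8 and 52.7 CPM in Input. For Grm3 the 3 groups did not overlap: the IgG RIP libraries were highest, the CaMKIIβ RIP libraries next and the Input libraries lowest.

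Group III receptors sit at presynaptic release sites. Grm4 (ENSMUSG00000063239.17; chromosome 17, 27422387 to 27521403, minus strand, 5977 exon bases) had 671, 816 and 636 CPM in CaMKIIβ RIP, 633, 635 and 672 CPM in IgG RIP, and 480 and 442 CPM in Input. All RIP libraries were above both Input libraries, and the highest value came from CaMKIIβ RIP replicate 2, the library that stood apart. Grm7 (ENSMUSG00000056755.13; chromosome 6, 110645581 to 111567230, plus strand, 5886 exon bases), the receptor of the active zone with low affinity for glutamate, had 59.4, 54.5 and 51.9 CPM in CaMKIIβ RIP, 53.3, 59.2 and 52.8 CPM in IgG RIP, and 51.8 and 51.3 CPM in Input. Its 8 values were the closest together of the 6 receptors relative to their level, with the Input libraries just below the RIP libraries. Grm8 (ENSMUSG00000024211.15; chromosome 6, 27275119 to 28135178, minus strand, 9898 exon bases) had 14.6, 8.89 and 15.9 CPM in CaMKIIβ RIP, 17.2, 16.2 and 19.5 CPM in IgG RIP, and 15.9 and 16.0 CPM in Input. Its lowest value was again in CaMKIIβ RIP replicate 2, where it rested on 153 counts, against 308 to 520 counts in the other libraries.

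**Figure D2:**
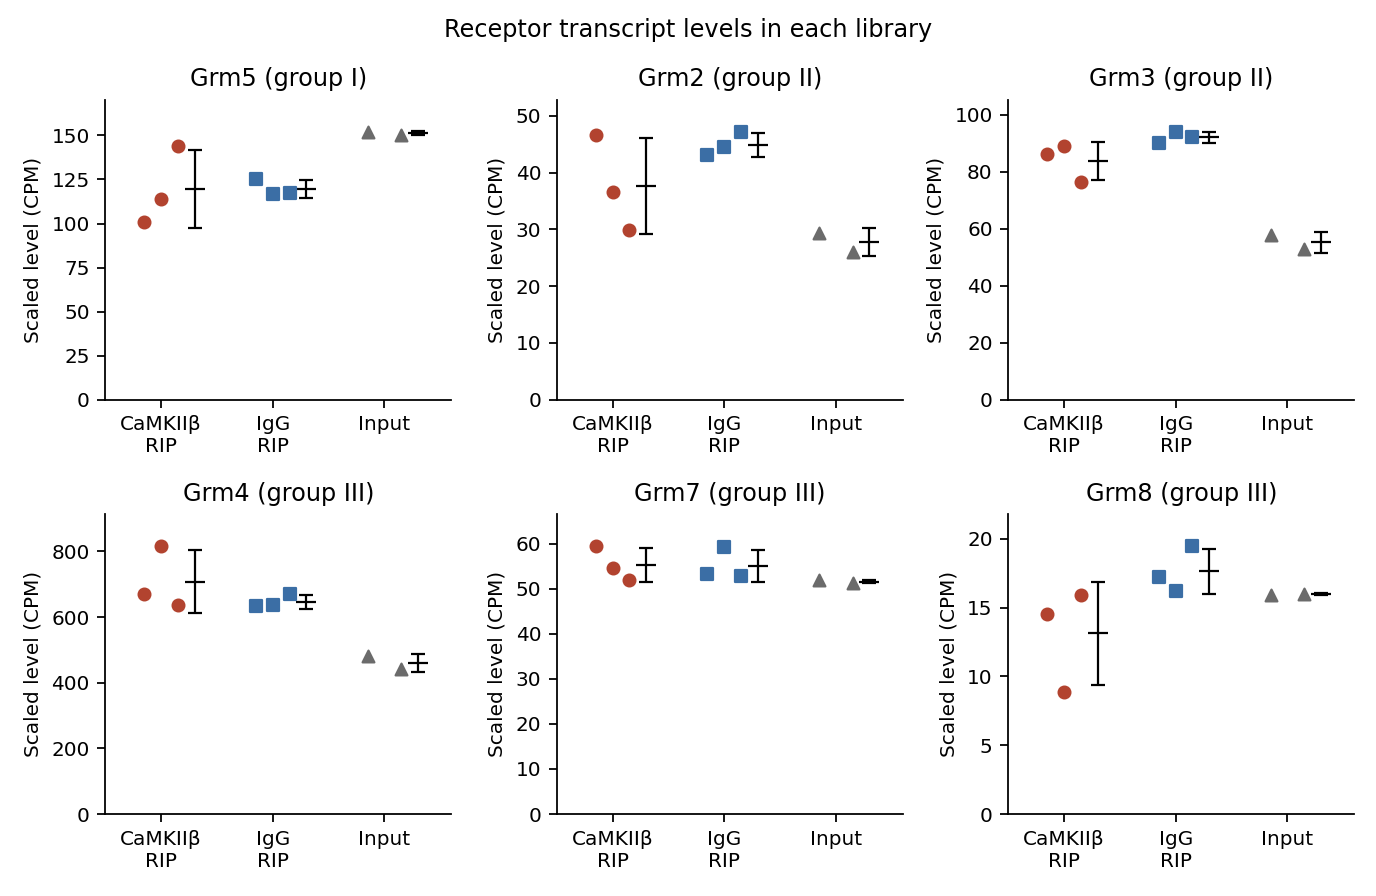
CPM of each receptor by library, 1 panel per gene with its own axis from 0, with a point per library and, beside the points, the mean and SD of CaMKIIβ RIP (n = 3), IgG RIP (n = 3) and Input (n = 2). Grm2, Grm3 and Grm4 lie higher in both kinds of RIP than in Input, Grm5 lies lower, and Grm7 and Grm8 stay near the Input level apart from the lowest point for Grm8, CaMKIIβ RIP replicate 2.

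In CaMKIIβ RIP against IgG RIP, 0 of the 6 receptors passed an adjusted p of 0.05, and neither did any of the 20566 genes tested (0%). The smallest adjusted p of all genes was 0.982, 721 genes (3.51%) had an unadjusted p under 0.05, and DESeq2 also called 0 genes. Grm5 had a log2 fold change of 0.01 ± 0.14 (SE, edgeR quasi-likelihood test, adjusted p = 0.999), with a 95% interval of -0.29 to 0.31. Grm7 had 0.02 ± 0.12 (interval -0.25 to 0.28, adjusted p = 0.995) and Grm4 0.14 ± 0.10 (interval -0.09 to 0.37, adjusted p = 0.982). The group II receptors and Grm8 had negative values: Grm3 -0.12 ± 0.11 (interval -0.36 to 0.11), Grm2 -0.24 ± 0.17 (interval -0.62 to 0.14) and Grm8 -0.41 ± 0.24 (interval -0.95 to 0.12), each with an adjusted p of 0.982. Single libraries moved these values: Grm2 was -0.43 without CaMKIIβ RIP replicate 1 and -0.10 without replicate 3, and Grm8 was -0.20 without replicate 2. Without CaMKIIβ RIP replicate 3 Grm3 was -0.066, and without replicate 2 Grm4 was 0.024. The upper ends of these intervals set the largest enrichment over IgG that the 6 libraries leave within the 95% interval, on the log2 scale 0.37 for Grm4, 0.31 for Grm5 and 0.28 for Grm7. Grm3 and Grm8 were the 2 receptors whose CaMKIIβ RIP and IgG RIP libraries did not overlap, both lower in CaMKIIβ RIP, against 12.1% of all genes tested with non-overlapping libraries, 5.12% higher and 6.93% lower. The median log2 fold change was -0.06 over the 6 receptors and -0.02 over all genes tested.

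Grm3 and Grm4 rose in CaMKIIβ RIP against Input, by similar amounts. Grm4 was 1.54-fold higher in CaMKIIβ RIP (log2 fold change 0.62 ± 0.13 SE, edgeR adjusted p = 0.0342) and Grm3 was 1.52-fold higher (0.60 ± 0.14, adjusted p = 0.0415). These 2 of 6 receptors stand against 8.45% of the 22095 genes tested that were called, 5.06% higher and 3.4% lower. Grm2 had 0.45 ± 0.22 (adjusted p = 0.305), Grm7 0.10 ± 0.14 (adjusted p = 0.782), Grm8 -0.28 ± 0.29 (adjusted p = 0.697) and Grm5 -0.34 ± 0.16 (adjusted p = 0.285), none past the threshold. Without CaMKIIβ RIP replicate 2 the value of Grm8 was -0.0019, and without replicate 3 it was -0.43. CaMKIIβ RIP and Input libraries did not overlap for 5 receptors, 4 higher and 1 lower with the antibody, against 47.4% of all genes tested, 18.9% higher and 28.5% lower. The median was 0.27 over the receptors and -0.12 over all genes tested. Both calls were lost without CaMKIIβ RIP replicate 1 (Grm3 0.61, adjusted p = 0.119, and Grm4 0.69, adjusted p = 0.111), a fit that called 0 of all genes tested, and without either Input library, while without CaMKIIβ RIP replicate 2 both were called. Scaling by library size in place of TMM also lost both, with log2 fold changes of 0.44 for Grm3 (adjusted p = 0.105) and 0.46 for Grm4 (adjusted p = 0.0929).

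In IgG RIP against Input, 4 of the 6 receptors changed: Grm2, Grm3 and Grm4 rose and Grm5 fell. Grm3 was 1.73-fold higher in IgG RIP (log2 fold change 0.79 ± 0.08 SE, edgeR adjusted p = 5.56e-07), Grm2 1.68-fold higher (0.75 ± 0.10, adjusted p = 1.39e-05) and Grm4 1.46-fold higher (0.54 ± 0.06, adjusted p = 2.42e-06). Grm5 was 1.22-fold lower in IgG RIP (-0.28 ± 0.07, adjusted p = 0.00256). Of the 22342 genes tested, 38.7% were called, 20.1% higher and 18.7% lower. The log2 fold changes of Grm3 and Grm2 lay at the 91.3 and 90.4 percentiles of all genes tested, that of Grm4 at 82.7 and that of Grm5 at 35.2. Grm7 (0.15 ± 0.09, adjusted p = 0.201) and Grm8 (0.20 ± 0.13, adjusted p = 0.262) did not pass. IgG RIP and Input libraries did not overlap for any of the 6 receptors, against 60.3% of all genes tested without overlap, 29.5% higher and 30.8% lower. The median was 0.37 over the receptors and -0.02 over all genes. In the fit of all 8 libraries together, Grm5 was not called (-0.34, adjusted p = 0.134). The 2 comparisons with Input share the Input libraries, so the likeness of their values is not independent. RIP libraries are scaled to their own totals, so the amount of RNA each antibody recovered is not visible.

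**Figure D3:**
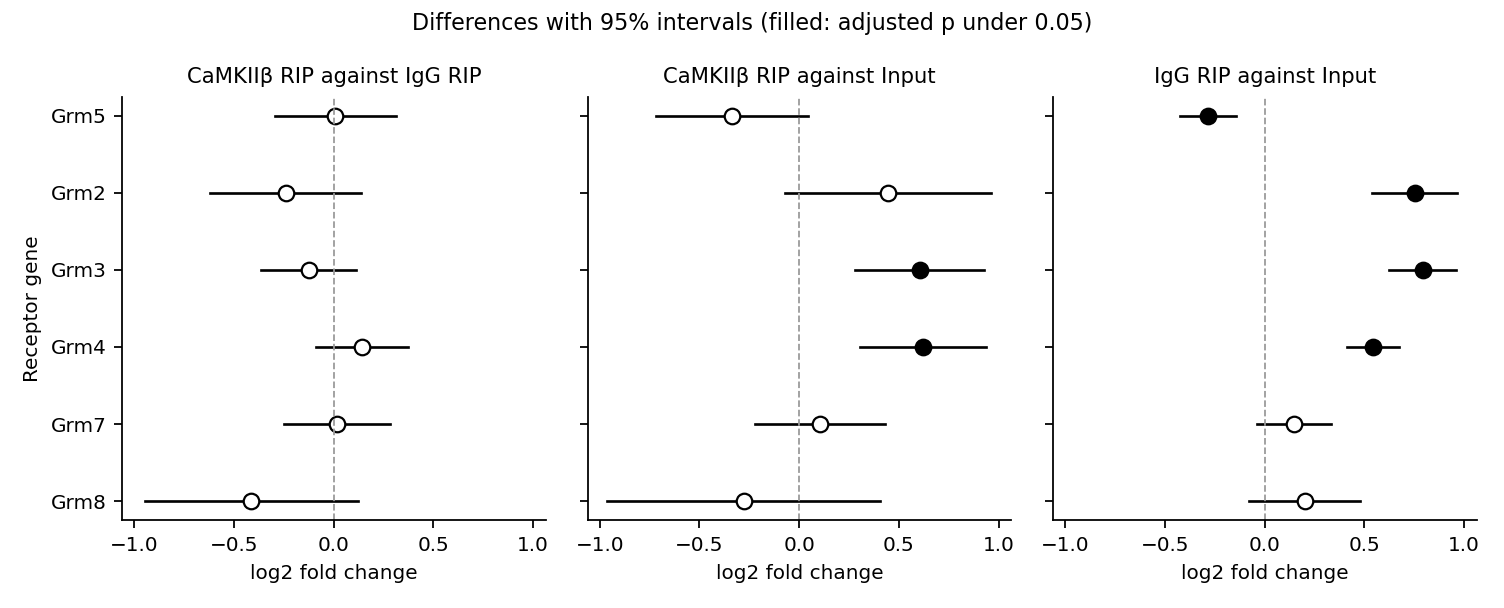
Log2 fold change (horizontal axis) with its 95% interval for each receptor, with 1 panel for each of the 3 comparisons, a dashed line at 0 and filled points where the adjusted p was under 0.05. All intervals in the panel of the 2 antibodies include 0, and those of Grm3 and Grm4 lie above 0 in both panels against Input.

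Glial marker sums were higher in RIP than in Input, as Grm3 was, and not for astrocytes alone. 9 of these markers had rows, and they summed to 9433 to 10758 CPM in CaMKIIβ RIP, 10092 to 11248 in IgG RIP and 4984 to 5114 in Input. Of these 9 genes, 6 were called higher in CaMKIIβ RIP than in Input and 8 in IgG RIP than in Input, against 5.06% and 20.1% of all genes tested, and none was at 0. 9 oligodendrocyte lineage markers summed to 9635 to 9924 CPM in CaMKIIβ RIP, 9140 to 9765 in IgG RIP and 5490 to 5504 in Input, with 4 called higher and 1 lower in the CaMKIIβ RIP comparison and 5 higher and 2 lower in the IgG one. 6 microglia markers summed to 96.6 to 132 CPM in CaMKIIβ RIP, 107 to 119 in IgG RIP and 80.2 to 82.8 in Input. The astrocyte sum was led by Slc1a2, the main glial glutamate transporter, whose log2 fold change was 1.33 ± 0.11 in CaMKIIβ RIP against Input (adjusted p = 0.00318) and 1.50 ± 0.07 in IgG RIP against Input (adjusted p = 1.26e-10). The cerebellar granule cell markers, set beside Grm4, summed to 6775 to 7500 CPM in CaMKIIβ RIP, 7013 to 7378 in IgG RIP and 4602 to 4747 in Input, but moved in both directions. Against Input, 2 of the 10 rose and 2 fell with the CaMKIIβ antibody, and 5 rose and 3 fell with IgG, beside 5.06% higher and 3.4% lower of all genes with the CaMKIIβ antibody and 20.1% and 18.7% with IgG. Among them Fat2, a cadherin of granule cell axons, had 1.47 ± 0.12 in CaMKIIβ RIP against Input (adjusted p = 0.00321), and Gabra6 had -0.85 ± 0.16 (adjusted p = 0.0224). Fat2 was the largest single part of the granule cell sums, averaging 4295 CPM in CaMKIIβ RIP, 4374 in IgG RIP and 1557 in Input. The higher sum in RIP rested on Fat2: in the group means, the other granule cell markers together were lower in RIP than in Input. Without CaMKIIβ RIP replicate 1 no marker was called in CaMKIIβ RIP against Input, where 0 of all genes were. The part of these marker genes in the values of Grm3 and Grm4 was not tested.

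Ratios between receptors within a library do not depend on how libraries are scaled. Per count of Grm5, Grm4 had 4.42 to 7.17 counts in CaMKIIβ RIP, 5.04 to 5.73 in IgG RIP and 2.93 to 3.16 in Input. Grm3 had 0.530 to 0.855 counts per count of Grm5 in CaMKIIβ RIP, 0.717 to 0.806 in IgG RIP and 0.350 to 0.380 in Input. For Grm2 the ratio was 0.208 to 0.463 in CaMKIIβ RIP, 0.343 to 0.402 in IgG RIP and 0.173 to 0.194 in Input. All 6 RIP libraries thus exceeded both Input libraries in the ratio of Grm2, Grm3 and Grm4 to Grm5, and the CaMKIIβ RIP libraries surrounded the IgG RIP libraries. The lower scaled level of Grm5 itself in RIP is part of every such ratio. It was 101 to 144 CPM in CaMKIIβ RIP and 117 to 125 in IgG RIP, against 150 to 152 in Input. Grm7 had 0.361 to 0.590 counts per count of Grm5 in CaMKIIβ RIP, 0.424 to 0.508 in IgG RIP and 0.341 in both Input libraries. Grm8 had 0.0781 to 0.145, 0.137 to 0.166 and 0.105 to 0.106 in the same groups, so its CaMKIIβ RIP libraries overlapped the Input range. These ratios are a description, with no test.

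**Figure D4:**
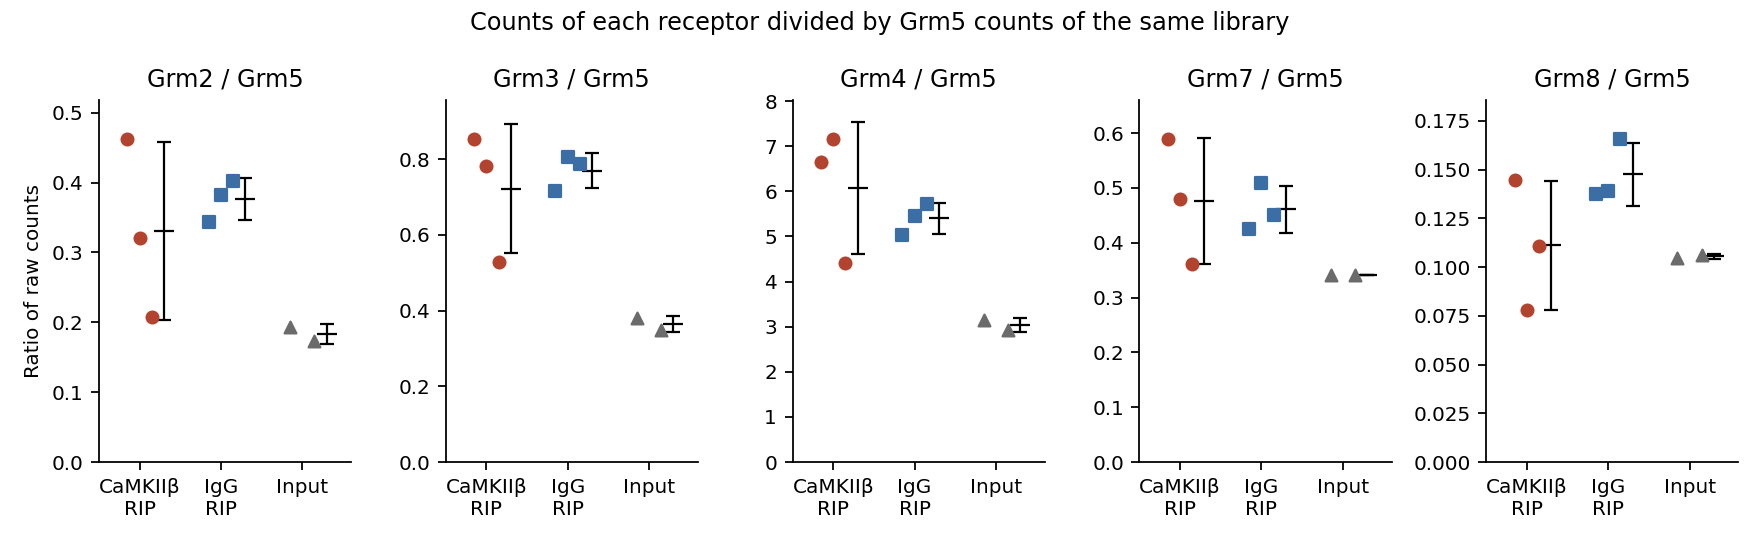
Counts of each receptor per count of Grm5 in the same library, 1 panel per receptor with its own axis from 0, with a point per library and the mean and SD of each group. Every CaMKIIβ RIP and IgG RIP point lies above the Input points for Grm2, Grm3, Grm4 and Grm7, while for Grm8 the CaMKIIβ RIP points lie on both sides of them.

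Log2 fold changes against Input varied with exon length over all genes, so tested genes were split by exon length into 10 groups of like size and each receptor was set against its own group. The median of that group in CaMKIIβ RIP against Input was -0.14 for the length of Grm3, -0.01 for those of Grm2, Grm4 and Grm7, and -0.01 for those of Grm5 and Grm8. With IgG it was -0.05 for Grm3, 0.08 for Grm2, 0.07 for Grm4 and Grm7, and 0.13 for Grm5 and Grm8. The values of Grm2, Grm3, Grm4 and Grm7 against Input lay above the median of their own length in both comparisons, that of Grm7 by the least. The value of Grm5 lay below its median in both, and that of Grm8 lay below it with the CaMKIIβ antibody and above it with IgG. With the length trend removed, Grm4 missed the threshold in CaMKIIβ RIP against Input (0.80, adjusted p = 0.055), while Grm3 kept its call. That alternative also moved the median of all genes tested from -0.12 to 0.23.

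**Figure D5:**
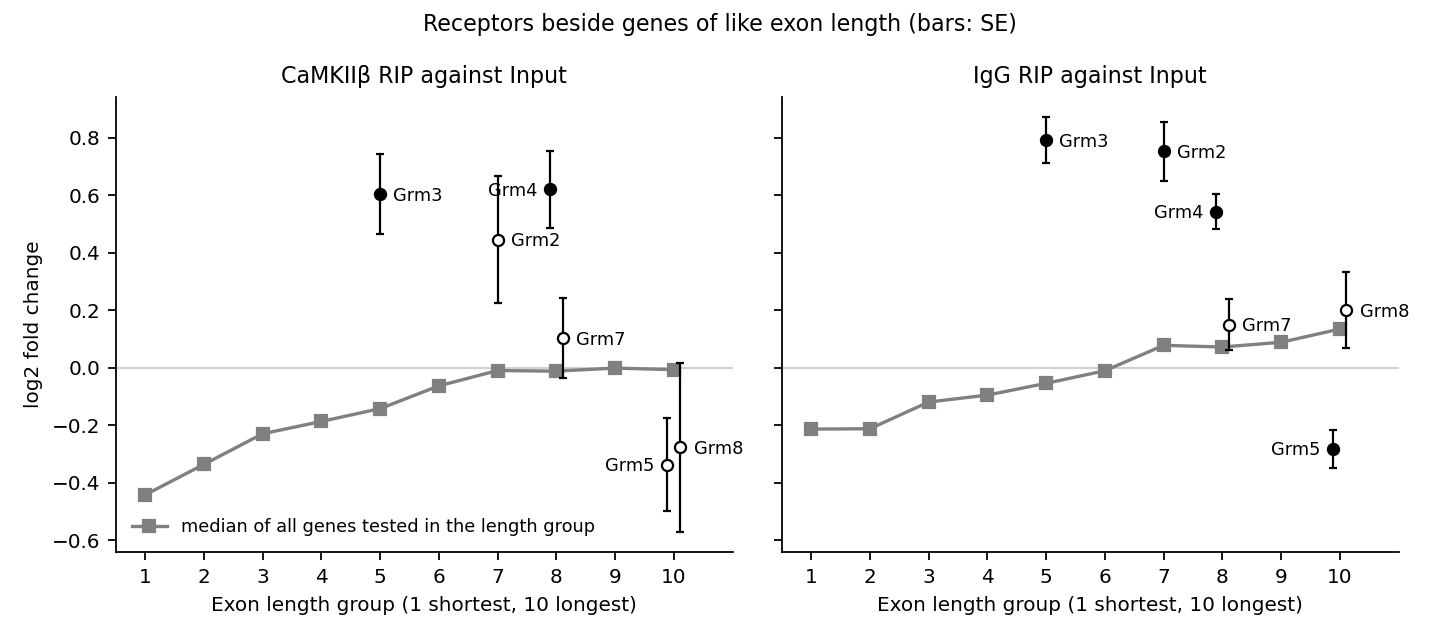
Median log2 fold change against Input of all tested genes in each of 10 groups by exon length (grey line, shortest genes on the left), for CaMKIIβ RIP on the left and IgG RIP on the right, with each receptor in its own length group with its SE and filled where the adjusted p was under 0.05. Grm2, Grm3, Grm4 and Grm7 lie above the line in both panels and Grm5 below it.

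Genes that work with these receptors were counted in 5 lists, and between the antibodies 0 genes of any list were called. The genes with the smallest p in that comparison were Siah1a, a ubiquitin ligase that binds group I receptors (log2 fold change 0.50 ± 0.19), and the receptor kinase Grk2 (0.20 ± 0.09) among partners and anchors. In the Gq arm the phospholipase C gene Plcb3 had 0.26 ± 0.10. In the Gi/o arm they were the G protein subunit Gnb2 (0.45 ± 0.18) and Rgs14 (0.55 ± 0.19), which speeds the turn-off of Gi/o proteins. The transporter Slc1a6 (0.41 ± 0.20), and the GABA-B receptor subunit Gabbr1 (-0.21 ± 0.13) and orphan receptor Gprc5c (0.20 ± 0.16), completed the set, all 8 with an adjusted p of 0.982.

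Against Input, more partner and Gq genes were called higher than lower in both kinds of RIP. With the CaMKIIβ antibody, 4 of 15 partners and anchors rose and 0 fell (median 0.39), among them Elfn2, a postsynaptic adhesion protein that binds group III receptors across the synapse (0.83 ± 0.12, adjusted p = 0.0117), and Ncdn, the neurochondrin that binds Grm5 (0.79 ± 0.11, adjusted p = 0.00984). In the Gq and phospholipase C arm 6 of 15 rose and 0 fell (median 0.57), led by the inositol trisphosphate receptors Itpr2 (1.44 ± 0.15, adjusted p = 0.00557) and Itpr1 (1.37 ± 0.11, adjusted p = 0.00285). In the Gi/o arm 1 of 20 rose and 2 fell (median -0.02): Rgs12 had 0.72 ± 0.17 (adjusted p = 0.0425), Rgs4 -0.63 ± 0.15 (adjusted p = 0.0468) and Gnai3, an inhibitory G protein subunit, -0.80 ± 0.17 (adjusted p = 0.0324). Of 10 genes for glutamate uptake, synthesis and vesicular loading, 2 rose and 1 fell (median 0.12), with Slc1a2 and the vesicular transporter Slc17a7 (0.51 ± 0.12, adjusted p = 0.0403) higher. Of 8 other class C receptors tested, Gprc5b rose (0.61 ± 0.12, adjusted p = 0.0234). Over all genes tested 5.06% rose and 3.4% fell, with a median of -0.12. Without CaMKIIβ RIP replicate 1, 0 genes of any list were called, and without CaMKIIβ RIP replicate 2 the counts higher and lower were 8 and 1 of the partners, 9 and 0 of the Gq arm, 3 and 2 of the Gi/o arm, 4 and 1 of the uptake list, and 2 and 0 of the class C receptors. Without Input replicate 2, 0 partners and 3 genes of the Gq arm were higher, and without Input replicate 1, 2 partners were.

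In IgG RIP against Input, 20.1% of all genes tested rose and 18.7% fell, with a median of -0.02, so calls were more frequent over all genes as well as in these lists. 9 of 15 partners and anchors rose and 2 fell (median 0.46): Elfn1, which also binds group III receptors across the synapse, had 1.05 ± 0.16 (adjusted p = 4.25e-05) and Elfn2 0.87 ± 0.07 (adjusted p = 1.08e-07), while the Grm5 scaffold Homer1 had -0.49 ± 0.08 (adjusted p = 0.000166) and Siah1a -0.68 ± 0.12 (adjusted p = 0.000186). Siah1a, which binds group I receptors, was thus lower as Homer1 was, while some other proteins that bind Grm5 were not. Homer2 had 0.52 ± 0.08 (adjusted p = 2.98e-05), Ncdn 0.72 ± 0.07 (adjusted p = 2.67e-07) and Homer3 0.05 ± 0.10 (adjusted p = 0.752), named here after their values were seen. In the Gq arm 10 of 15 rose and 1 fell (median 0.41), with Itpr2 at 1.50 ± 0.07 (adjusted p = 3.55e-10), Itpr1 at 1.36 ± 0.06 (adjusted p = 7.87e-11) and the G protein subunit Gnaq at -0.40 ± 0.06 (adjusted p = 7.37e-05). The Gi/o arm split, with 8 of 20 higher and 7 lower (median 0.02), such as Gnaz (0.68 ± 0.09, adjusted p = 1.53e-05) and Gng3 (0.54 ± 0.11, adjusted p = 0.00068) against Gnai3 (-0.57 ± 0.16, adjusted p = 0.00748) and Gnb5 (-0.36 ± 0.09, adjusted p = 0.0034). In the uptake list 4 of 10 rose and 1 fell (median 0.11), with Slc1a2 and glutamine synthetase Glul (1.05 ± 0.06, adjusted p = 2.29e-09) higher. Of the other class C receptors 4 of 8 rose and 0 fell (median 0.51), among them Gpr179 (1.48 ± 0.28, adjusted p = 0.000447) and Gprc5b (0.67 ± 0.06, adjusted p = 1.87e-07). In the fit of all 8 libraries 2 genes of the Gi/o arm were higher and 2 lower, and without Input replicate 1 or 2, 3 or 4 of its genes were lower.

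All 6 receptor genes have other annotated genes within or across their span, 15 in all, of which 10 lie on the same strand, and whether the counting used strand is not given in the sources used here. 3 of the 15 share exon bases with a receptor. A noncoding gene on the opposite strand of Grm2 shares 470 of its exon bases, and it had 0 to 16 counts per library, against 570 to 1261 for Grm2. A gene on the opposite strand across the start of Grm7 (ENSMUSG00000092448.1, 110639753 to 110645916) shares 130 exon bases and had 1 to 34 counts, against 938 to 1436 for Grm7. Without strand, reads of such overlapping genes cannot be told apart. The window at the start of Grm7 is shown because the 2 genes meet there: all of it lies within the span of the opposite gene, and the capitals are the first 67 exon bases of Grm7 (RefSeq, GRCm38.p6, plus strand, chr6:110645521-110645647).
Grm7 start: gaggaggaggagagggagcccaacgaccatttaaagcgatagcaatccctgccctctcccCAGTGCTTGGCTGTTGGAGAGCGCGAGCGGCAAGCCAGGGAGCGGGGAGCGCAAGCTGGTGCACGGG

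The third is Mir592, a microRNA gene of 96 bases on the strand of Grm8 (chromosome 6, 27936655 to 27936750), all of which lie in an annotated exon of Grm8. It had 0 counts in all 8 libraries. A read there would fall in both genes, and how such reads were counted is not given in the sources used here, so the 0 gives no level for this microRNA. Its mature arms are shown because they are the small RNA sequences encoded inside the receptor gene, with the seed (bases 2 to 8) in capitals (RefSeq, GRCm38.p6, minus strand, chr6:27936672-27936693 for the 3p arm and chr6:27936711-27936733 for the 5p arm). The seeds differ between the arms.
mmu-miR-592-3p: uCAUCACGuggugacgcaacau
mmu-miR-592-5p: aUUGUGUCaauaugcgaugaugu

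Grm5 had 5 genes on its own strand that share no exon base with it. Their summed counts were 126, 146 and 256 in CaMKIIβ RIP, 101, 153 and 147 in IgG RIP, and 327 and 371 in Input. As a percentage of the Grm5 counts this was 5.18%, 7.46% and 8.56% in CaMKIIβ RIP, 3.62%, 6.09% and 4.69% in IgG RIP, and 11.1% and 10.6% in Input. All RIP libraries were below both Input libraries. In IgG RIP against Input 3 of the 5 fell, beside 18.7% of all genes tested, among them ENSMUSG00000108993.1 (log2 fold change -2.09 ± 0.26, adjusted p = 5.96e-06), while Grm5 itself fell by 0.28. In CaMKIIβ RIP against Input 0 of the 5 were called.

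The profile of each receptor over the 8 libraries was compared with 12287 named protein-coding genes by the Pearson correlation of log2 CPM. The 8 points share the 3 groups and the scaling, so the correlations are a description and carry no p. The closest genes were Mgat5 (0.995), Scd2 (0.991) and Ext2 (0.990) for Grm3, and Fbxo41 (0.997), 2310022B05Rik (0.996) and Klhl29 (0.996) for Grm4. For Grm2 they were Srgap1 (0.990), Phc1 (0.985) and Apcdd1 (0.984), and for Grm5 Kcnj2 (0.988), Tlk2 (0.985) and Cspp1 (0.976). Grm8 was closest to Tnik (0.986), Arpp21 (0.985) and Ncoa6 (0.980). Grm7, which varied least, had the weakest best matches, Maob (0.957), Samd11 (0.956) and Atp10a (0.936). Among the receptors, Grm3 correlated with Grm4 at 0.89 and with Grm2 at 0.88, while Grm5 correlated negatively with Grm2 (-0.88), Grm3 (-0.81), Grm7 (-0.81) and Grm4 (-0.77).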

How the data were processed

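RNA from CaMKIIβ RIP, IgG RIP and Input was sequenced. The deposited table holds raw counts per gene, with featureCounts 2.0.1, STAR 2.7.3a, cutadapt 2.10 and Trim Galore 0.6.4 and the build GRCm38.p6 (mm10) listed by the authors, per the submitters' processing notes; strandedness and the handling of reads shared by genes are not given in the sources used here. Columns were mapped by name and 0 columns of values were left unused. A symbol was given where a RefSeq gene on GRCm38.p6 and a gene of the table were each other's best partner, overlapped in 0.5 or more of the span they cover together, and no second partner came to 0.8 of that overlap; 34132 of 55401 genes, with 96.1% of counts, were named.

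edgeR 4.0.16 (R 4.3.3) was run separately on the libraries of each comparison, after filterByExpr (minimum count 10, minimum total 15) and TMM scaling, with its robust quasi-likelihood F test, with Benjamini-Hochberg adjustment over all genes tested and a threshold of 0.05. All 6 receptors passed the filter in all 3 comparisons. Levels are CPM computed from the deposited counts with TMM over 8 libraries; log2 CPM used a prior count of 2. Fits were tested on simulated data. The text names all 6 receptors and, from each list in each comparison with Input, up to 2 called genes with the largest rises and 2 with the largest falls at an average log2 CPM of at least 1; in CaMKIIβ RIP against IgG RIP, where none was called, the 2 with the smallest p; and for each receptor the 3 most correlated genes. Genes of marker lists were named beside a receptor. Some genes the rule names are not reported here. Receptors and lists were chosen with earlier results of these data known. Alternatives were other scalings, no count filter, DESeq2 1.42.0, a fit of all 8 libraries, the replicate number as a block, removal of a loess trend (span 0.5) on exon length, and leaving out each library. GC content was not examined. Scripts used Python 3.11.15.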

Additional observations from a re-analysis of the deposited data

How the results depend on the processing

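In CaMKIIβ RIP against IgG RIP, 0 receptors were called under all 14 alternatives. Signs turned only for values near 0: Grm5 was -0.0033 in the fit of all 8 libraries, -0.0065 with the replicate block and -0.15 to 0.12 when each library was left out, Grm7 was -0.042 to 0.069 when each was left out, and Grm3 was 0.11 with the length trend removed, below the median of all genes, which that alternative moved to 0.15. In CaMKIIβ RIP against Input, the 2 receptors called higher became 0 with library size scaling, 1 with the length trend removed and 0 to 2 when each library was left out; 1 receptor was called lower with the replicate block (Grm5 -0.50, adjusted p = 0.00555); and Grm7 was -0.063 with library size scaling, still above the median of all genes. In IgG RIP against Input, Grm2, Grm3 and Grm4 kept their calls under all 13 alternatives, the 1 receptor called lower became 0 in the fit of all 8 libraries, and library size scaling gave Grm7 -0.076 and Grm8 -0.027, both still above the median of all genes. The causes were not tested.

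Over all genes, CaMKIIβ RIP against Input gave 1868 calls, against 3448 with DESeq2, 3833 in the fit of all 8 libraries, 4205 with the replicate block, 2866 without the count filter, 0 and 4089 when CaMKIIβ RIP replicate 1 or 2 was left out, 845 without Input replicate 1 and 400 without Input replicate 2. IgG RIP against Input gave 8653, against 3676 in the fit of all 8 libraries. Removing the length trend gave 1284 higher and 308 lower in CaMKIIβ RIP against Input, at a median of 0.23 over all genes. Library size scaling moved the median of all genes to -0.29 and -0.25 against Input, and the calls to 683 higher and 1361 lower in CaMKIIβ RIP (1117 and 751 with TMM), and to 2714 higher and 6345 lower in IgG RIP (4483 and 4170 with TMM). Same-numbered CaMKIIβ RIP and IgG RIP libraries correlated at -0.0478 to 0.00441 in their deviations from the group mean. With 3 libraries per group and CaMKIIβ RIP replicate 2 standing apart, this cannot tell whether they share an animal. The labels do not say. Replicate 3 has no Input of its number, so the block in effect drops CaMKIIβ RIP and IgG RIP replicate 3 from the comparisons with Input. When 1 Input library was left out, the other was assumed to vary like the RIP libraries. With 3, 3 and 2 libraries, the 95% intervals given above limit what the comparison of the antibodies can show for these receptors.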
